A study of Mus musculus with 6 samples.

Results

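The epidermal growth factor (EGF) ligands and ErbB receptors were examined in mouse tubular cells after Glis2 knockdown, against cells with a control hairpin. The members are the genes Egf, Hbegf, Areg, Ereg, Tgfa, Btc, Nrg1, Egfr, Erbb2 and Erbb3, and every array probe annotated with 1 of these 10 symbols was taken. That gave 19 probes for 9 genes, of 45281 probes in all. Areg, the gene of amphiregulin, was not analysed here.

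EGF ligands are made as membrane-anchored precursors and are released by metalloproteases, chiefly of the ADAM family. They bind ErbB receptor tyrosine kinases, which pair up on binding and signal through Ras, the MAP kinases and PI3 kinase. In kidney tubules this system is known for its part in repair after injury, and its lasting activation is known to accompany fibrosis.

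RNA was measured on 6 Illumina bead arrays, 3 of cells that received a short hairpin RNA against Glis2 and 3 of cells that received one against GFP. Both groups were immortalized proximal tubular cells of a strain labelled C56BL/6, infected with lentivirus and harvested 7 days later. Glis2 encodes a zinc finger transcription factor whose loss causes cystic and fibrotic kidney disease. Whether the 3 arrays of a group stem from separate cultures is not stated, so p-values reflect the spread between these samples alone, and that spread may be technical. The labels name 1 hairpin target per group, and the loss of Glis2 and other differences between the infected populations cannot be told apart.

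The number of arrays limits the precision. Values are linear intensities that include background, whose limit was placed at 137. On each array 40.9% of the probes lay above it. Both Glis2 probes were lower in the knockdown. ILMN_1226316 had 169, 161 and 176 in knockdown cells, against 278, 234 and 230 in control cells, a log2 difference of -0.55 ± 0.089 (SE) with limma's adjusted p = 7.16e-05. ILMN_2745305 had a difference of -0.36 and limma's adjusted p = 0.00577. Of 8 proximal tubule markers analysed, 2 were above background, the water channel Aqp1 and the peptidase Mme, and both were lower in the knockdown (-4.77 for Aqp1, at least 6.20-fold lower for Mme). The endocytic receptors Lrp2 and Cubn and the phosphate transporter Slc34a1, which define that cell type, had means under the limit. The distal tubule transporter Slc12a3 averaged 1148 in knockdown and 1244 in control cells. Immune and endothelial markers were above the limit in 0 of 4 and 0 of 6 genes, distal tubule and collecting duct markers in 3 of 7 and 1 of 5, podocyte markers in 1 of 2, and fibroblast markers in 1 of 7. In these lists limma called 1 gene higher, the podocyte marker Podxl (0.39), and 2 lower, the distal tubule channel Trpm6 (-0.31) and the fibroblast proteoglycan Dcn, which averaged 139 in knockdown, with 2 of 3 arrays under the limit, and 275 in control cells. The summed level of the proximal tubule markers ranged from 1168 to 1379 in knockdown and from 10745 to 12262 in control cells, most of it from Aqp1, which averaged 365 in knockdown and 9760 in control cells. The other six genes of that list were not called, and the median difference of the 8 was 0.02. The part of these marker differences in the results below was not tested. In bulk RNA, fewer cells that express a gene and less RNA per cell cannot be told apart.

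Across the family, 2 ligands rose and 1 receptor fell in the knockdown. The ligand genes were Hbegf and Btc, and the receptor was Egfr. The Btc call rested on values close to background. It was lost in 4 of 17 alternative ways of processing, single arrays left out among them. Of the 19 probes, 5 passed the test (limma's adjusted p under 0.05 over all probes), 2 of them higher and 3 lower. Among all probes 15.6% passed, 7.84% higher and 7.76% lower. Of the 11 member probes with a mean above background 5 passed, or 45.5%, where 37.5% of all probes above background did (18.8% higher and 18.7% lower), so the share of called member probes was near that of other measured transcripts. The median difference of the 19 probes was -0.04, and that of all probes was 0.00. Knockdown and control arrays were fully separated for 7 of the 19 probes, and for 26.3% of all probes. All 7 were among the 11 member probes above background, where 48.4% of all probes were separated. Of the 7, 4 were probes of Egfr. Of the 8 member probes not above background limma called 0, and 0 had an unadjusted p under 0.05. At that signal these probes show neither a level nor a change.

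**Figure D1:**
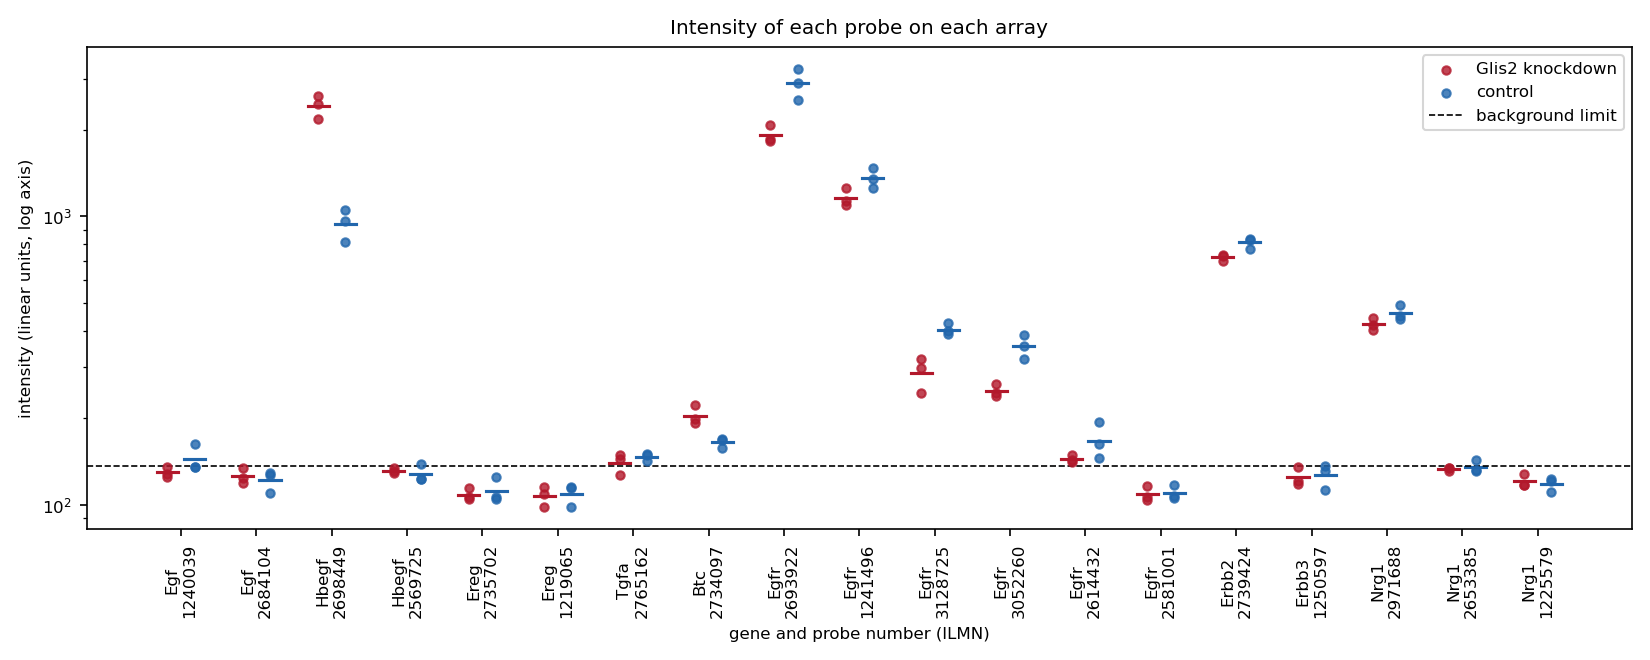
Intensity of each of the 19 probes on each array, on a log axis, with knockdown arrays in red left of control arrays in blue. Short bars are means of 3 arrays and the dashed line is the background limit of 137. Hbegf stands out as higher in the knockdown (2417 against 944 on average), Egfr ILMN_2693922 as lower (1920 against 2894), and probes of Ereg and Erbb3 lie at background.

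Heparin-binding EGF-like growth factor, Hbegf, binds both EGFR and ErbB4 and also binds heparan sulfate. Its probe ILMN_2698449 had intensities of 2460.0, 2617 and 2174 in knockdown cells, against 814, 966 and 1052 in control cells. The lowest knockdown array was above the highest control array. The means were 2417 ± 224 in knockdown and 944 ± 120 in control cells (SD, n = 3 each), which is 2.57-fold higher, a log2 difference of 1.36 ± 0.098 (SE) with limma's adjusted p = 4.95e-10. Only 1.51% of the probes above background had a difference of larger size. The gene lies on chromosome 18, where 32 of its 50 nearest genes above background fell and 1 rose in the knockdown, with a median of -0.38. Relative to those neighbours the difference of Hbegf was 1.75. A second probe, ILMN_2569725, annotated to the cDNA AK052084, was under the limit on all knockdown arrays and on 2 of 3 control arrays, and gave no level for the gene.

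Betacellulin, Btc, is another ligand of EGFR and ErbB4. Its probe ILMN_2734097 had 222, 198 and 191 in knockdown cells, against 157, 168 and 169 in control cells. The groups did not overlap, and all 6 arrays were above the limit, though close to it. The means were 204 ± 16.4 in knockdown and 165 ± 6.80 in control cells (SD, n = 3 each), a log2 difference of 0.30 ± 0.085 (SE) with limma's adjusted p = 0.0143. This call depended on single arrays: it was lost without knockdown replicate 1 (limma's adjusted p = 0.0982) or control replicate 1 (limma's adjusted p = 0.0768). With the most frequent intensity subtracted the difference was 0.81, and the call was lost as well (limma's adjusted p = 0.0857). The 50 genes around Btc on chromosome 5 had a median of 0.15, with 20 higher and 6 lower, and relative to them Btc had 0.13 (limma's adjusted p = 0.475).

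The other ligands of EGFR were near or at background. Transforming growth factor alpha, Tgfa, had 149, 127 and 145 in knockdown and 148, 149 and 142 in control cells, with 1 knockdown array under the limit. The groups overlapped, and the log2 difference was -0.07 with a 95% interval from -0.25 to 0.11. EGF itself is made in the kidney mainly by the distal tubule. The brighter Egf probe, ILMN_1240039, had 136, 125 and 128 in knockdown cells, all under the limit, and 162, 136 and 135 in control cells, of which 1 was above it. Its log2 difference was -0.15 (limma's adjusted p = 0.353). The second Egf probe was under the limit on all 6 arrays. Both probes of epiregulin, Ereg, a ligand of EGFR and ErbB4, lay between 97.9 and 115 in knockdown cells and between 98.4 and 124 in control cells, under the limit throughout. No statement on a change of Ereg can be drawn from these arrays.

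Neuregulin 1, Nrg1, is the ligand of ErbB3 and ErbB4. Its probe ILMN_2971688 had 405, 444 and 420 in knockdown cells, against 493, 441 and 450 in control cells. All 6 arrays were above the limit and the groups overlapped. The log2 difference was -0.12 ± 0.084 (SE, 95% interval -0.30 to 0.05) with limma's adjusted p = 0.450. The other two Nrg1 probes, annotated to the same transcript, averaged 133 and 121 in knockdown and 135 and 118 in control cells, under the limit. The transcript was thus detected by 1 of 3 probes.

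**Figure D2:**
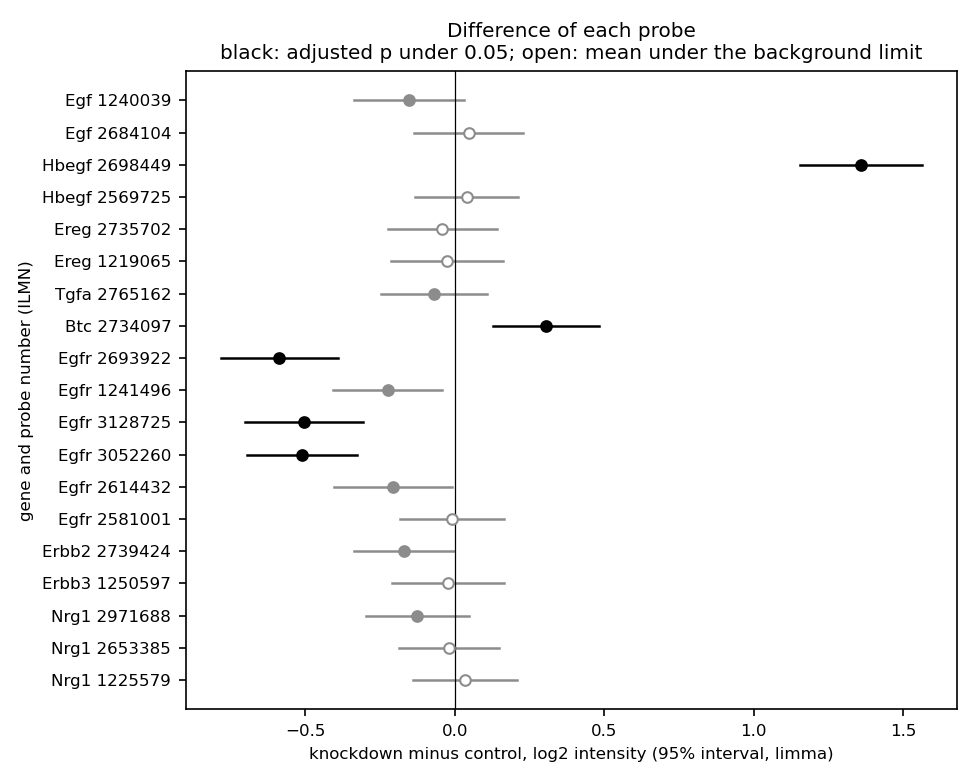
Difference of each probe, knockdown minus control, in log2 intensity, with limma's 95% interval over 3 arrays per group. Black marks calls at adjusted p under 0.05 and open points mark probes with a mean under the background limit. Hbegf is at 1.36 and Btc at 0.30, and the 3 called Egfr probes lie between -0.59 and -0.51.

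The EGF receptor, Egfr, is the receptor of most ligands above, and it had the brightest member probe, with a mean brighter than 94.2% of all probes. It was measured by 6 probes, of which 5 were above background. The 250 bases before its annotated start and those before the start of Btc are shown because these are the called members on either side of the comparison with a promoter entry, from RefSeq on GRCm38.p6. Capitals mark a GC box, the letters GGGCGG or their reverse complement. The Egfr stretch is chr11:16751953-16752202 on the plus strand and the Btc stretch chr5:91402995-91403244 on the minus strand.
Egfr: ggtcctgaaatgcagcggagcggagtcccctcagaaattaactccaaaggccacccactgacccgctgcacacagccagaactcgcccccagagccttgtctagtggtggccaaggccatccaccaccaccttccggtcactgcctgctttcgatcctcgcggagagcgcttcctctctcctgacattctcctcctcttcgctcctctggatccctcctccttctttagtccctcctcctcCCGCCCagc
Btc: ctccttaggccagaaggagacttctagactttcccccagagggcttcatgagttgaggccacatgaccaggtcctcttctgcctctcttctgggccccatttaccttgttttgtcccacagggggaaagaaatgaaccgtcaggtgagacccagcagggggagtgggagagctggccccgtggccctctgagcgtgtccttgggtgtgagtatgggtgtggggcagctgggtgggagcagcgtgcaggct

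On both strands, the Egfr stretch held 1 GC box and the Btc stretch 0, where 32.7% of 32851 promoter stretches of the same length held at least 1. Neither held a TATA box (TATAAA, in 12.4% of all stretches), an AP-1 site (TGANTCA, 6.75%), the GLI site GACCACCCA (0.225%) or the letters TGGGGGGT, the core of a site known to bind Glis proteins (1.36%). None of these motifs contains another. Egfr had 11 CpG and Btc 4, where the median stretch had 6. These are counts of letters in a short window.

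Egfr fell on 3 of its 6 probes. ILMN_2693922, annotated to the transcript NM_207655, had 1854, 1826 and 2081 in knockdown cells, against 2899, 3248 and 2534 in control cells. The means were 1920 ± 140 in knockdown and 2894 ± 357 in control cells (SD, n = 3 each), a log2 difference of -0.59 ± 0.094 (SE) with limma's adjusted p = 6.43e-05. Every knockdown array was below every control array, and 11.7% of probes above background had a difference of larger size.

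Both probes annotated to the other RefSeq transcript, NM_007912, were dimmer and also lower. ILMN_3128725 had 321, 244 and 297 in knockdown cells, against 400, 390 and 425 in control cells, a log2 difference of -0.51 ± 0.095 (SE, limma's adjusted p = 0.000407). ILMN_3052260 had 239, 263 and 243 in knockdown cells, against 389, 354 and 321 in control cells, a log2 difference of -0.51 ± 0.088 (SE, limma's adjusted p = 0.000146). On neither probe did the groups overlap, so probes of both annotated transcripts were called in the same direction.

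The remaining Egfr probes were not called. ILMN_1241496, the second brightest, had 1252, 1131 and 1097 in knockdown cells, against 1257, 1469 and 1343 in control cells. The groups were separated by a narrow gap, and the log2 difference was -0.22 (95% interval -0.41 to -0.04) with limma's adjusted p = 0.0978. ILMN_2614432, annotated to NM_207655 as well, had 149, 142 and 140 in knockdown cells and 145, 194 and 162 in control cells, just above the limit, and a difference of -0.21 (limma's adjusted p = 0.190). ILMN_2581001, annotated to the cDNA AK087861, lay under the limit on all 6 arrays. All 5 probes above background had negative differences, from -0.59 to -0.21. Their order depended on the background: with the most frequent intensity subtracted, ILMN_2614432 had -0.72 and ILMN_1241496 -0.25, both still not called, and without control replicate 2 ILMN_2614432 had -0.09. The 50 genes around Egfr on chromosome 11 had a median of -0.12, and relative to them the 3 called probes had -0.45, -0.37 and -0.38, all still called. With the most frequent intensity subtracted, ILMN_2693922 and ILMN_3128725 lost their calls (limma's adjusted p = 0.0629 and 0.125), at differences of -0.62 and -0.77. In that setting ILMN_3052260 had -0.83 and kept its call.

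ErbB2 has no known ligand and serves as the preferred partner of the other receptors. Its probe ILMN_2739424 had 699.6, 735 and 731 in knockdown cells, against 834, 772 and 831 in control cells. The groups did not overlap, but the log2 difference was -0.17 ± 0.081 (SE, 95% interval -0.34 to -0.0013) and limma's adjusted p = 0.211. ErbB3, a receptor for neuregulins with little kinase activity of its own, had 118, 135 and 121 in knockdown and 131, 136 and 113 in control cells on its 1 probe. All 6 values were under the limit. Of the other EGF family genes, the receptor Erbb4 averaged 116 in both groups, and the ligands Epgn, Nrg3 and Nrg4 averaged 131, 109 and 122 in knockdown and 122, 119 and 125 in control cells. In that list 0 of 4 genes had a mean above the limit, limma called 0, and 0 had an unadjusted p under 0.05. Of the 4 ErbB receptors, then, Egfr and Erbb2 were measured above background in these cells.

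The neighbouring steps of the pathway were described through 8 gene lists, each gene by its brightest probe. In this view 22.0% of all 19057 genes and 42.2% of the 9665 above background were called (20.8% of the 9665 higher and 21.5% lower), and the median difference of all genes was 0.00.

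Among genes of ligand shedding and trafficking, 2 of 13 rose and 3 fell, and 12 were above background (median -0.09). Adam17, the main protease that sheds Hbegf, Tgfa and Areg, had 951, 788 and 758 in knockdown cells, against 1287, 1189 and 1162 in control cells, a log2 difference of -0.55 with limma's adjusted p = 0.00011. Adam17 was also lower on its other probe (-0.43). Rhbdl2, a rhomboid protease that can cleave EGF, fell by 0.40 on the log2 scale. Adam12, a protease that can release Hbegf, and Adam15 rose by 0.97 and 0.94. The other Adam12 probe was not above background and was not called (0.01). Adam15 had 4 further probes, 2 of them above background, with differences from -0.02 to 0.41, and 1 was called higher. The groups did not overlap for any of these 4 genes, which was a condition for naming them. The other gene of this list that fell did not meet it. Adam17 and Rhbdl2 lost their calls with background subtracted, at differences of -0.62 and -0.45 (limma's adjusted p = 0.0639 and 0.165).

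Of 9 surface partners of the ligands, all above background, 3 rose and 4 fell (median -0.09). Cd9, a tetraspanin that binds the Hbegf precursor, had 8699, 9516 and 8745 in knockdown cells, against 12957, 12288 and 13648 in control cells, a log2 difference of -0.53 (limma's adjusted p = 4.91e-05). The heparan sulfate proteoglycans Sdc1 and Gpc1, of the kind that binds Hbegf, had -0.89 and -0.96, with 0 of 2 further Sdc1 probes called. Cd82, another tetraspanin, rose by 0.71, but was not called with background subtracted (0.77, limma's adjusted p = 0.0777).

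Among 18 genes that restrain or degrade the receptors, 3 rose and 6 fell, and 16 were above background (median -0.11). Lrig3, a membrane protein of a family that includes inhibitors of ErbB receptors, had 243, 244 and 255 in knockdown cells, against 126, 97.9 and 96.5 in control cells, all under the limit, and was at least 1.81-fold higher (limma's adjusted p = 1.99e-09). The ubiquitin ligase gene Cblc rose by 0.70, and the endosomal sorting genes Stam2 and Stam had -0.65 and -0.46. Further probes of these 4 genes were not called, including 2 of Stam above background (-0.04 and 0.01). Stam lost its call with background subtracted, at -0.85 (limma's adjusted p = 0.0952).

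Downstream, 4 of 15 adaptor, Ras and MAP kinase genes were called, 1 higher and 3 lower (median -0.04). The scaffold Gab1, which couples EGFR to PI3 kinase, averaged 896 ± 46.3 in knockdown and 1308 ± 5.74 in control cells (SD, n = 3 each), a log2 difference of -0.55. The kinase gene Araf had -0.90 on the X chromosome, where its 50 neighbours had a median of -0.64. Map2k2, the gene of a MAP kinase kinase, rose by 0.32 on chromosome 10, where the neighbours had a median of 0.31, and it lost its call without knockdown replicate 3 (limma's adjusted p = 0.0932) or control replicate 3 (limma's adjusted p = 0.0817). Of 10 PI3 kinase and Akt genes, 3 rose and 1 fell (median -0.01). The PI3 kinase subunits Pik3r1 and Pik3cb rose by 0.74 and 0.62. Mtor rose by 0.43 and Rictor had -0.50, both on 1 probe, with further probes of each above background that were not called. With background subtracted Araf, Map2k2 and Pik3cb lost their calls at differences of -0.95, 0.33 and 0.67 (limma's adjusted p = 0.0545, 0.158 and 0.117).

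The lists of MAP kinase feedback inhibitors and of immediate-early and ERK target genes held calls in both directions. Of 14 feedback inhibitors, 2 rose, 1 fell and 11 were not called (median 0.01). Dusp5, a nuclear phosphatase of ERK, had 1246, 1319 and 1078 in knockdown cells, against 514, 655 and 556 in control cells, a log2 difference of 1.08 with limma's adjusted p = 2.03e-08. Dusp1 rose by 0.52, and Dusp4 had -0.56 and was lower on each of its 3 further probes. Of 18 immediate-early and ERK target genes, 9 rose, 3 fell and 6 were not called (median 0.26), with 14 above background. That is 66.7% called, against 21.4% of the feedback inhibitors and 22.0% of all genes. All 12 calls were among the 14 genes above background, where 42.2% of all genes were called. Phlda1 averaged 6391 ± 139 in knockdown and 3133 ± 399 in control cells (SD, n = 3 each), a log2 difference of 1.04, and Plaur, the urokinase receptor, rose by 0.87. The transcription factor Egr1 had 1392, 1009.6 and 1430 in knockdown cells, against 2887, 2437 and 2558 in control cells, a log2 difference of -1.05, and lies on chromosome 18 among neighbours with a median of -0.40. Egr3 was under the limit in all knockdown arrays and at least 1.86-fold lower, while its second probe, above background, had 0.04 and was not called. Dusp1 and Plaur lost their calls with background subtracted, at 0.53 and 1.01 (limma's adjusted p = 0.0870 and 0.0605).

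**Figure D3:**
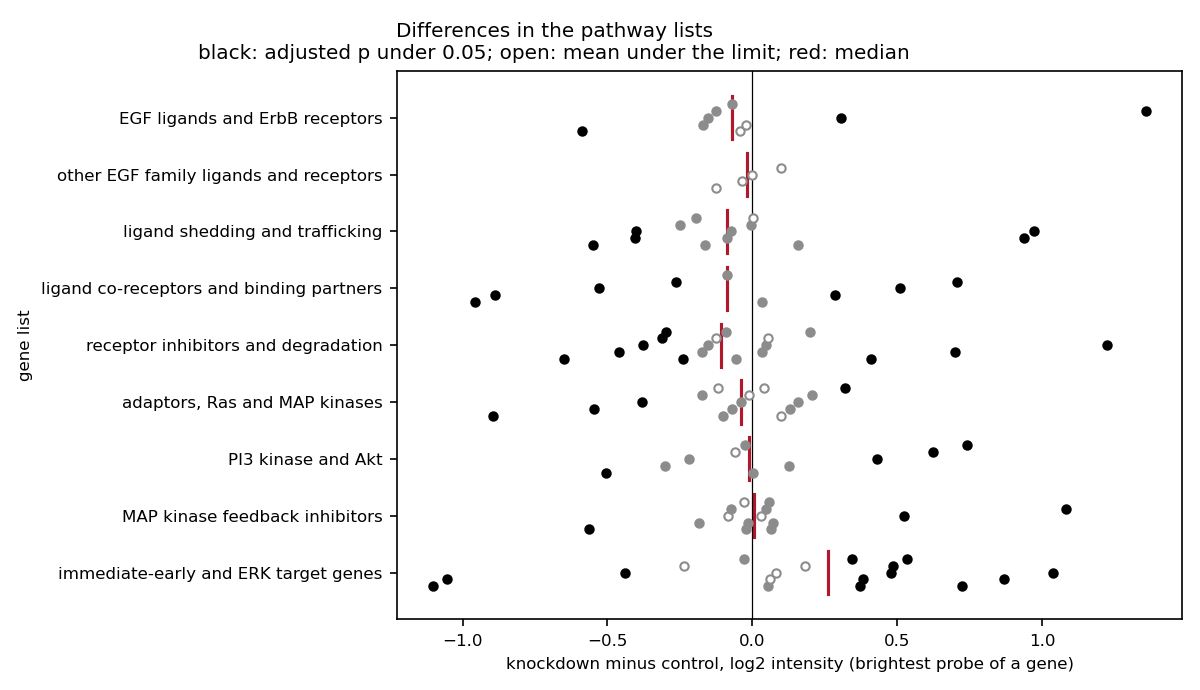
Difference, knockdown minus control, in log2 intensity for the brightest probe of each gene, by list. Black marks calls at adjusted p under 0.05, open points genes under the background limit, and red bars the median of a list. The medians of the lists lie between -0.11 and 0.26, and the called genes of each pathway list that has any stand on both sides of 0.

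The 5 called member probes differed in how far they depended on the processing. The alternatives were not independent checks. The arrays already shared 1 distribution, so quantile normalization and median centring left the differences almost unchanged. The replicate block, the filters, trend and robust eBayes and 1 probe per gene left the difference itself as it was. Hbegf remained called in all 17 alternatives, with log2 differences from 1.26 to 1.75. Egfr ILMN_3052260 remained called in all 16 that gave it a value, from -0.83 to -0.38. The other two called Egfr probes lost the call in 1 alternative each, and Btc in 4 of 17.

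**Figure D4:**
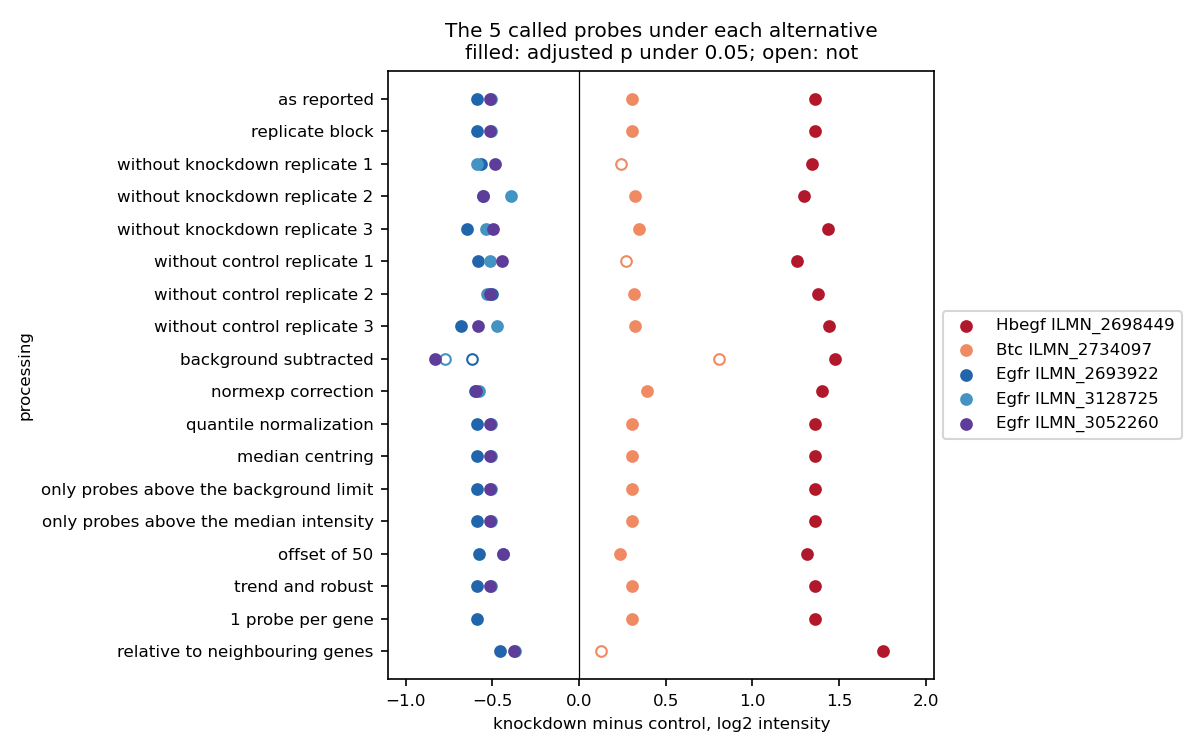
Difference, knockdown minus control, in log2 intensity for the 5 called member probes under each way of processing. Filled points passed adjusted p under 0.05 in limma. Hbegf stays between 1.26 and 1.75, and Btc is open in 4 of the 17 alternatives.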

How the data were processed

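The deposited values are linear intensities, 1 for each probe on each array. Per the labels' protocols, total RNA was hybridised on an Illumina array with Cy3 label; the sources used here give no software, normalization or background handling by the authors. From the values, the arrays shared 1 distribution (log2 medians 6.98 each) and background was included (lowest value 85.4). Intensities were floored at 16, which altered 0 values, and log2 transformed. Knockdown was compared with control over all 45281 probes with limma 3.58.1 in R 4.3.3 (lmFit, eBayes), with Benjamini-Hochberg adjustment and a threshold of 0.05. The fit was checked on simulated data. The background limit is the most frequent intensity, 113, plus 3 times the SD of 7.91 below it. "At least" folds put the limit in place of arrays under it. Probe symbols come from the platform annotation: 34885 probes had 1 symbol, 18 several and 10378 none; 34807 matched RefSeq GRCm38.p6, used for names, positions of genes and promoters, and 0 symbols changed. The sources used here name no build for the array. Genes in lists were named where called with non-overlapping groups, up to 4 per list by smallest p. Members and lists were chosen with earlier results of these data known. Alternatives were a replicate block, single arrays left out, background subtraction, normexp, other normalizations, filters, an offset of 50, trend and robust eBayes, 1 probe or the mean of probes per gene, and values relative to 50 neighbouring genes. Same-numbered arrays did not deviate together (r from -0.09 to -0.04 over 18080 probes), so the numbers were not taken to pair them.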

Additional observations from a re-analysis of the deposited data

How the results depend on the processing

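With the most frequent intensity subtracted, limma called 1748 probes higher and 1699 lower, against 3549 and 3516 as reported, and 14 genes higher and 10 lower over the pathway lists, against 23 and 21. In that setting 1 member probe was called higher (Hbegf) and 1 lower (Egfr ILMN_3052260), and the Glis2 probe ILMN_2745305 had -1.01 with limma's adjusted p = 0.179; the cause was not tested. With 1 probe per gene, 2127 and 2164 genes and 1 lower member gene were called, since fewer features were tested. Leaving out single arrays gave 1 to 2 higher and 3 to 4 lower member probes, the fourth being Egfr ILMN_2614432 without control replicate 1 (limma's adjusted p = 0.0499). Under the replicate block limma called 3414 probes higher and 3376 lower, with 2 and 3 member probes as before, and it changed no call of a member. With background subtracted, the pathway genes Adam17, Araf, Cd82, Dusp1, Map2k2, Pik3cb, Plaur, Rhbdl2 and Stam lost the call (limma's adjusted p 0.0545 to 0.165). Their differences kept their direction and were no smaller than as reported. Subtracting a constant from groups that do not overlap allows no other outcome. Map2k2 also lost its call with normexp. No called difference of a named gene changed sign. The groups of these genes did not overlap, so leaving out an array or subtracting a constant could not reverse it. Signal over background limits Ereg, Erbb3, Egf, Tgfa and 2 Nrg1 probes.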
